A study of Mus musculus with 5 samples.

Results

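Collagen chain genes were described in whole mouse lung, as the genes whose symbol has the form Col, a type number, a and a chain number. Of 43 such genes in the deposited tables, 31 had a log2 mean abundance (logCPM, the log2 of CPM, reads of a gene scaled to a common library size) of at least 0 in all 4 tables and are the members, out of 21590 genes listed and 14285 at that minimum. The rule used abundance and symbol only, not any difference between groups. Just inside the minimum lay Col6a4, Col6a6 and Col11a2, whose lowest logCPM in the authors' deposited tables was 0.43, 0.72 and 0.74, and just outside lay Col10a1 at -0.55 and Col9a3 and Col28a1 at -0.82 each. The other 9 genes under the minimum were Col2a1, Col9a1, Col9a2, Col11a1, Col19a1, Col22a1, Col24a1, Col25a1 and Col26a1. The symbol Col6a3 was not found among the 21590 genes listed, so Col6a3 was not analysed here.

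Whole lungs of wild type (WT) mice and of mice lacking Cldn4 (KO), the gene for the epithelial tight junction protein claudin-4, were sequenced with or without ventilator-induced lung injury (VILI), all on a mixed 129S6, C57BL/6 and BALB/c background. KO_VILIhigh and KO_VILIlow were KO lungs ventilated for 2 h at 40 cmH2O and found more injured than, or about as injured as, ventilated WT lungs, so that both groups were formed by injury. WT_VILI lungs were ventilated in the same way, and KO_noVILI and WT_noVILI lungs were not ventilated. The design gives duplicates, 2 libraries a group, but the tables hold 0 columns of values per library, so each group's level below is 1 rebuilt value with no spread of its own.

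Collagens are built from 3 chains wound into a triple helix. Fibrillar types such as I, III and V form the tensile fibres of the lung interstitium, airways and vessels, and type IV forms the network of the basement membrane under epithelium and endothelium. Type VI forms beaded filaments beside both, and fibril-associated collagens with interrupted triple helices (FACIT) sit on the fibre surface. Fibroblasts are known as the main source of types I and III, while endothelial and epithelial cells contribute type IV. Chains are hydroxylated, folded with the chaperone HSP47 (Serpinh1), trimmed outside the cell and cross-linked by lysyl oxidase (Lox).

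The summed level of the 31 members was 4888 CPM in KO_VILIhigh, 5019 CPM in KO_VILIlow, 5389 CPM in WT_VILI, 4001 CPM in KO_noVILI and 3542 CPM in WT_noVILI. Per kilobase of transcript, the type IV chains Col4a2 and Col4a1 were the most abundant members in WT_noVILI, at 86.1 and 82.4 CPM per kb. Col6a1 followed at 60.6, Col1a2 at 54.0, Col3a1 at 42.9, Col4a3 at 40.0, Col6a2 at 39.1, Col23a1 at 25.8 and Col1a1 at 24.1 CPM per kb in WT_noVILI. These neighbours in the order have no spread between libraries, so it was not tested which of them differ. At the low end Col6a4, Col11a2 and Col6a6 stood at 0.399, 0.287 and 0.245 CPM per kb in WT_noVILI. The WT_VILI level of a member could be rebuilt from 3 tables, and its range over them had a median of 0.07 and a maximum of 0.28 on the log2 scale.

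**Figure D1:**
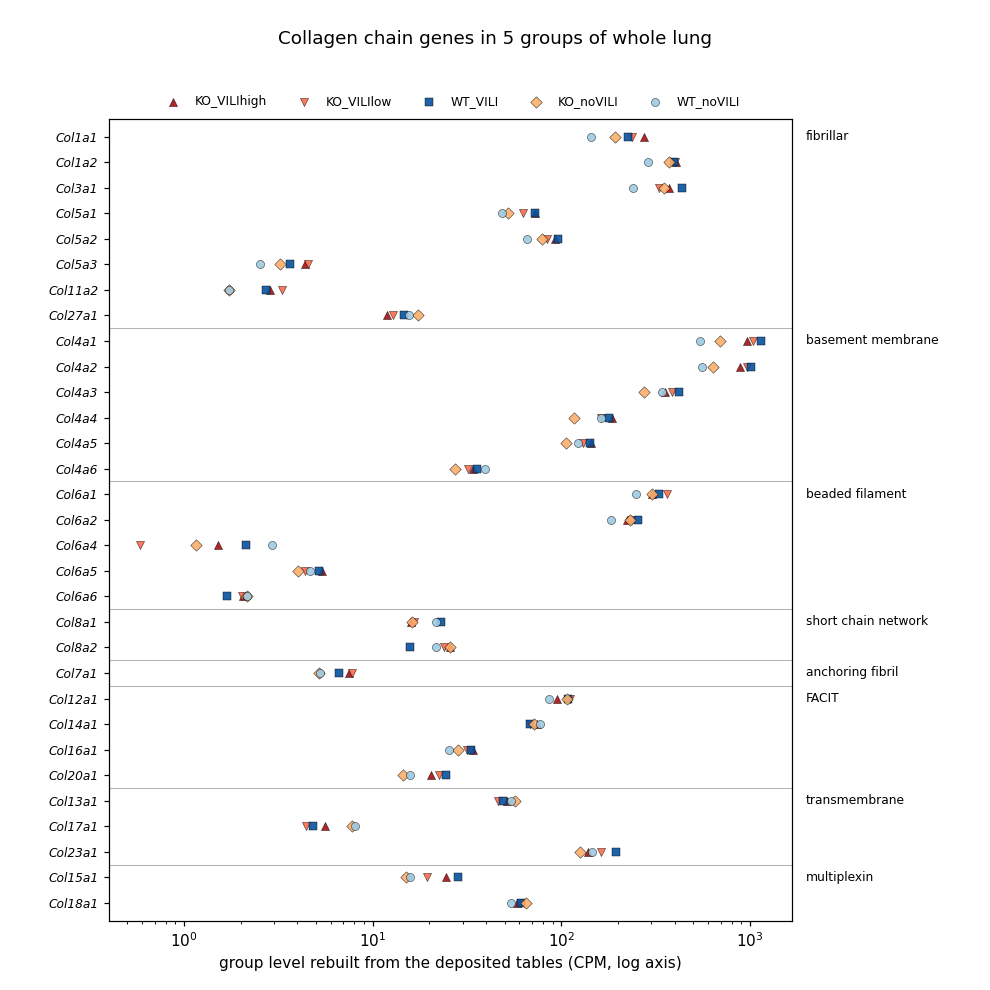
Level of each of the 31 collagen chain genes in KO_VILIhigh, KO_VILIlow, WT_VILI, KO_noVILI and WT_noVILI, as CPM on a log axis, 1 rebuilt value per group. Col4a1 and Col4a2 lie furthest right, and WT_noVILI is the lowest of the 5 groups for Col1a1, Col1a2, Col3a1, Col4a1, Col4a2, Col6a1 and Col6a2.

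Before the results, 4 features of the groups bear on them. Cldn4 stood at 0.122 CPM in KO_VILIhigh, 0.0211 CPM in KO_VILIlow, 139.7 CPM in WT_VILI, 0.135 CPM in KO_noVILI and 8.98 CPM in WT_noVILI. The order of the groups was itself read from the fold change of Cldn4, so the direction of these values is no check of the genotype labels. Xist, transcribed in females, was at 2.64, 4.39 and 6.13 CPM in KO_VILIhigh, KO_VILIlow and WT_VILI, against 504.1 CPM in KO_noVILI and 889.6 CPM in WT_noVILI, and the Y-linked Ddx3y was at 91.9, 108.3 and 115.3 CPM in the ventilated groups and at 0.177 and 0.0984 CPM in KO_noVILI and WT_noVILI. Ventilation and this sex-linked difference cannot be told apart in any ventilated against unventilated comparison. The 6 cardiac muscle markers summed to 651.0, 934.9, 384.9, 232.5 and 578.7 CPM in KO_VILIhigh, KO_VILIlow, WT_VILI, KO_noVILI and WT_noVILI. The 7 cartilage markers summed to between 4.72 and 6.60 CPM. Only 1 of these 7, Sox9, reached the abundance minimum, so their sum holds values near the floor. In whole lung, fewer cells of a type and less RNA per cell cannot be told apart.

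The first comparison asked how 2 h of ventilation changed collagen mRNA in lungs with Cldn4. In WT_VILI against WT_noVILI, 11 of the 31 members rose and 0 fell in the authors' deposited table at an adjusted p of 0.05, where the p is that of their edgeR test with correction over all genes. That is 35.5% of the members, while 6.94% of all 14285 genes rose and 6.2% fell. The 11 were all among the 24 members with a logCPM of at least 3 throughout. The share of all genes at that higher minimum is not given here. The members' median log2 fold change was 0.33 and that of all genes -0.02 in the authors' deposited table. Of the 31 members, 23 had a positive log2 fold change in that table and 14 an unadjusted p under 0.05. Here and below, shares of all genes count calls at an adjusted p of 0.05. They are not the background for counts at an unadjusted p, for which no share of all genes is given. The calls fell in 5 of the 8 classes that hold a member: 5 of 8 fibrillar chains, 2 of 6 basement membrane chains, 2 of 5 beaded filament chains, 1 of 4 FACIT chains and 1 of 2 multiplexins.

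Both ubiquitous type IV chains rose. Col4a1 (Entrez 12826, chromosome 8), whose product joins that of Col4a2 in the commonest basement membrane trimer, was at 1141 CPM in WT_VILI and 545.0 CPM in WT_noVILI. Its log2 fold change in the authors' deposited table was 1.07 (approximate 95% interval 0.81 to 1.32, adjusted p = 7.03e-14), a 2.09-fold level. Its partner Col4a2 (Entrez 12827, chromosome 8) was at 1013 CPM in WT_VILI and 555.2 CPM in WT_noVILI, a log2 fold change of 0.87 (0.61 to 1.12, adjusted p = 2.17e-09) in the authors' deposited table. The ratio of Col4a1 to Col4a2 per kb was 1.098 in WT_VILI and 0.957 in WT_noVILI.

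Of the other type IV chains, Col4a3, Col4a4 and Col4a5 products assemble together in restricted networks of the alveolar and glomerular basement membranes. Neither these chains nor Col4a6 passed the test. Col4a3 was at 419.0 CPM in WT_VILI and 342.3 CPM in WT_noVILI, Col4a4 at 179.5 and 161.8 CPM, and Col4a5 at 141.0 and 121.9 CPM in the same order. Their log2 fold changes in the authors' deposited table were 0.29, 0.15 and 0.21, and that of Col4a6 was -0.14, with adjusted p between 0.497 and 0.94. Per kb, Col4a1 exceeded Col4a3 by a ratio of 3.52 in WT_VILI and 2.06 in WT_noVILI; the difference between these ratios was not tested.

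Among fibrillar chains, all 5 members of types I, III and V with a level above 40 CPM rose. Col3a1 (Entrez 12825, chromosome 1), the sole chain of type III, was at 437.8 CPM in WT_VILI and 238.7 CPM in WT_noVILI, a log2 fold change of 0.88 (0.62 to 1.13, adjusted p = 2.35e-09) in the authors' deposited table. The 2 chains of type I moved by smaller amounts: Col1a1 (Entrez 12842, chromosome 11) was at 225.3 CPM in WT_VILI and 142.7 CPM in WT_noVILI, and Col1a2 (Entrez 12843, chromosome 6) at 395.5 CPM in WT_VILI and 288.8 CPM in WT_noVILI. Their log2 fold changes in the authors' deposited table were 0.66 (0.40 to 0.92, adjusted p = 3.62e-05) for Col1a1 and 0.45 (0.20 to 0.71, adjusted p = 0.00856) for Col1a2. Type I is assembled from Col1a1 and Col1a2 products at 2 to 1, and the mRNA ratio of Col1a1 to Col1a2 per kb was 0.514 in WT_VILI and 0.446 in WT_noVILI.

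Type V collagen, which regulates the width of type I fibres, followed. Col5a1 (Entrez 12831) was at 72.1 CPM in WT_VILI and 48.3 CPM in WT_noVILI, and Col5a2 (Entrez 12832) at 95.7 CPM in WT_VILI and 65.6 CPM in WT_noVILI. Their log2 fold changes in the authors' deposited table were 0.58 (0.29 to 0.86, adjusted p = 0.00181) and 0.55 (0.24 to 0.85, adjusted p = 0.00943). The 3 fibrillar members that did not pass were Col11a2 and Col5a3, both under 5 CPM in all 5 groups, and Col27a1 at 14.7 CPM in WT_VILI and 15.7 CPM in WT_noVILI. Their log2 fold changes in the authors' deposited table were 0.65, 0.53 and -0.09.

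In the other classes, 4 members rose. Col6a1 (Entrez 12833) and Col6a2 (Entrez 12834), neighbours on chromosome 10 that encode chains of type VI, were at 329.9 and 254.9 CPM in WT_VILI and at 248.4 and 182.1 CPM in WT_noVILI. Their log2 fold changes in the authors' deposited table were 0.41 (0.14 to 0.68, adjusted p = 0.0351) and 0.48 (0.22 to 0.75, adjusted p = 0.00675). Col15a1 (Entrez 12819), a basement membrane zone collagen of the multiplexin class, was at 28.3 CPM in WT_VILI and 15.7 CPM in WT_noVILI, with 0.85 (0.46 to 1.23, adjusted p = 0.000524) in the authors' deposited table. The FACIT member Col20a1 (Entrez 73368) was at 24.5 CPM in WT_VILI and 15.8 CPM in WT_noVILI, with 0.64 (0.25 to 1.03, adjusted p = 0.0198) in the authors' deposited table.

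The remaining 20 members did not pass. Col23a1, a transmembrane collagen, came nearest, with a log2 fold change of 0.42 (adjusted p = 0.0598) in the authors' deposited table. The lowest values were those of Col17a1, the hemidesmosome collagen of epithelial cells, at -0.73 (adjusted p = 0.281), Col8a2, a short chain of vessel and corneal basement layers, at -0.46 (adjusted p = 0.223), and Col6a4 at -0.46 (adjusted p = 0.867) in the authors' deposited table. The other multiplexin, Col18a1, which carries the endostatin fragment, stood at 61.0 CPM in WT_VILI and 54.0 CPM in WT_noVILI, and Col14a1, a FACIT member, at 68.3 and 77.3 CPM in the same order.

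**Figure D2:**
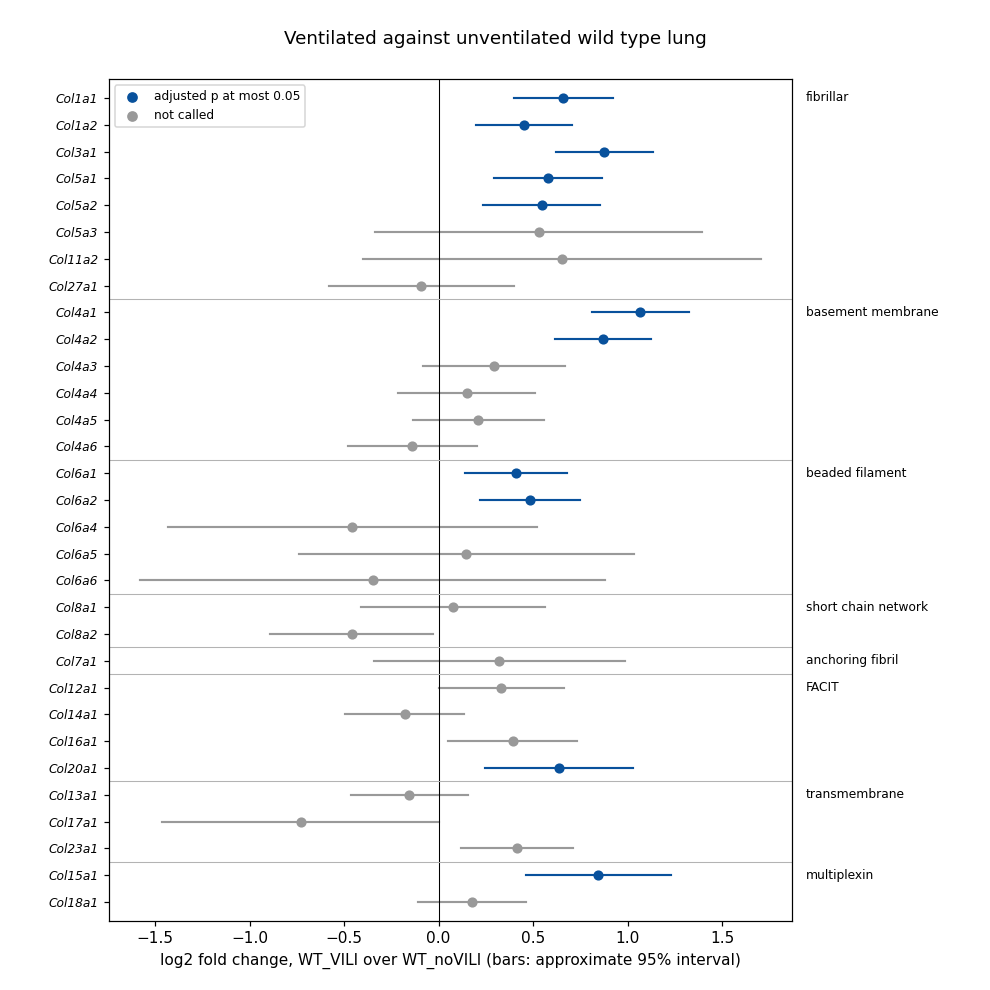
Log2 fold change of each collagen chain gene in WT_VILI over WT_noVILI, from the authors' deposited table, grouped by class, with approximate 95% intervals recovered from the deposited p. The 11 called members, from Col6a1 at 0.41 to Col4a1 at 1.07, lie right of 0 with their whole interval.

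Several other quantities moved with this comparison, and their part in the result was not tested. For the marker counts that follow, 6.94% of all genes rose and 6.2% fell in this comparison. Of 14 fibroblast markers, 4 rose and 2 fell in the authors' deposited table, and their sum was 2628 CPM in WT_VILI and 2457 CPM in WT_noVILI. That sum is weighted to abundant markers: Npnt was at 781.5 CPM in WT_VILI and 566.4 CPM in WT_noVILI. Tcf21 was at 32.9 and 146.4 CPM in the same order. Of 7 endothelial markers, 0 rose and 1 fell in the authors' deposited table, with 2 at an unadjusted p under 0.05, and their sum was 3617 CPM in WT_VILI and 3813 CPM in WT_noVILI. All 5 neutrophil markers rose in the authors' deposited table, to a sum of 534.8 CPM in WT_VILI against 139.8 CPM in WT_noVILI. Collagen transcripts are long and rich in G and C: the members' longest coding transcripts ran from 3162 to 11511 nt, with a median of 6119 nt and a median GC content of 56.2%. Of all genes with transcripts of at least 5000 nt, 7.97% rose in this comparison, and of those under 1500 nt 3.95%.

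Several chain genes lie side by side in the genome. In the gene order of GRCm38.p6, 7 pairs of members were neighbours, and 6 of the 11 members that rose formed 3 of these pairs: Col3a1 and Col5a2 on chromosome 1, Col4a1 and Col4a2 on chromosome 8, and Col6a2 and Col6a1 on chromosome 10. In the other 4 pairs, which were Col4a4 with Col4a3 on chromosome 1, Col6a6 with Col6a5 and Col6a5 with Col6a4 on chromosome 9, and Col4a6 with Col4a5 on chromosome X, neither gene passed. The annotated starts of Col4a1 and Col4a2, on opposite strands, lie 21 bases apart. Exons of Col4a1 and Col4a2 share 22 bases, and without knowledge of strand use in counting, reads over them cannot be assigned. Col3a1 shares 141 exon bases, 2.53% of its exons, with the same-strand gene Gm47302 in the GRCm38 annotation.

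To show the promoters of chains that rose together, the 250 bases before the annotated start were read from RefSeq (GRCm38.p6) for 26 of the 31 members, among them 9 of the 11 that rose. The Col3a1 sequence, at chr1:45311288-45311537 on the plus strand, is shown whole because Col3a1 is the only one of these 9 with the letters TATAAA, which stand in capitals 117 bases before the start.
Col3a1: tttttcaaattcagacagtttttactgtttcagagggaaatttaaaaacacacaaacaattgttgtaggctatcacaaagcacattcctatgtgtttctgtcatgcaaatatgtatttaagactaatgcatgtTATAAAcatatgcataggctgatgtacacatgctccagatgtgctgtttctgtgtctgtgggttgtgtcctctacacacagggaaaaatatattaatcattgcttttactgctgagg

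For 4 other risers, 30 bases around a searched motif are shown. The capitals mark CCAAT in Col1a2 at chr6:4505497-4505526 (plus strand) and in Col4a2 at chr8:11312761-11312790 (plus strand), its reverse complement ATTGG in Col4a1 at chr8:11312954-11312983 (minus strand), and TGACTCA, a form of the AP-1 motif TGANTCA, in Col6a1 at chr10:76726116-76726145 (minus strand), all in GRCm38.p6.
Col1a2: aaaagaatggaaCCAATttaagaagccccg
Col4a2: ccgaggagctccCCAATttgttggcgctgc
Col4a1: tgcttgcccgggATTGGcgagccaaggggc
Col6a1: tgctgatgctgTGACTCActcagctttgag

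Motifs were searched on both strands of the 250 bases. CCAAT was present in 3 of the 9 risers with a promoter, in 7 of the 17 other members and in 37.5% of 27025 genes. TATAAA was present in 1 of 9 risers, 3 of 17 other members and 14.3% of genes, and GGGCGG, the GC box, in 4 of 9, 14 of 17 and 35.4%. TGANTCA was present in 1 of 9 risers, 0 of 17 other members and 7.82% of genes, and GGAATG, the core bound by TEAD factors, in 3 of 9, 1 of 17 and 14.4%. A match describes the letters only.

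The second comparison set KO against WT lungs without ventilation. No member passed in KO_noVILI against WT_noVILI: 0 of 31 rose and 0 fell in the authors' deposited table at an adjusted p of 0.05. At that adjusted p, 2.01% of all genes rose and 2.83% fell. Of the members, 8 had an unadjusted edgeR p under 0.05, a looser threshold. This comparison shares WT_noVILI with the one above, so their values are given side by side and not related to each other. Col3a1 was nearest, at 349.9 CPM in KO_noVILI and 238.7 CPM in WT_noVILI, a log2 fold change of 0.55 (0.20 to 0.91, adjusted p = 0.0642) in the authors' deposited table. With correction over genes of a logCPM of at least 1 only, Col3a1 passed at an adjusted p of 0.0445.

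The fibrillar chains had a median of 0.31 and the basement membrane chains one of -0.26, both log2 values from the authors' deposited table, beside 0.01 for all genes. Col1a1 was at 192.6 CPM in KO_noVILI and 142.7 CPM in WT_noVILI (log2 fold change 0.43, adjusted p = 0.135, in the authors' deposited table), and Col1a2 at 371.9 and 288.8 CPM (0.36, adjusted p = 0.313). Type IV chains lay on both sides of 0. Col4a1 had 0.35 (adjusted p = 0.195) and Col4a2 0.20 (adjusted p = 0.761), against -0.53 (adjusted p = 0.101) for Col4a6, -0.47 (adjusted p = 0.262) for Col4a4 and -0.32 for Col4a3 in the authors' deposited table.

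Outside these classes, the lowest value was that of Col6a4, at 1.16 CPM in KO_noVILI and 2.94 CPM in WT_noVILI, with -1.34 (adjusted p = 0.101) in the authors' deposited table. The 2 short chains of type VIII differed in sign, with -0.43 (adjusted p = 0.387) for Col8a1 and 0.25 (adjusted p = 0.954) for Col8a2 in the authors' deposited table. Col11a2 and Col6a6 were listed at a fold change of exactly 0 in the authors' deposited table, and no interval could be recovered for them or for Col7a1. Mural and smooth muscle markers fell in 3 of 7 cases and cardiac muscle markers in 5 of 6 in this comparison in the authors' deposited table, while 2.83% of all genes fell. The part of either list in the collagen values was not tested.

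The third comparison asked whether ventilated KO lungs differed from ventilated WT lungs. In KO_VILIhigh against WT_VILI, 0 members rose and 0 fell in the authors' deposited table, with 2 of 31 at an unadjusted edgeR p under 0.05, while 1.57% of all genes rose and 0.651% fell. In KO_VILIlow against WT_VILI, 0 members rose and 0 fell in the authors' deposited table, with 4 at an unadjusted edgeR p under 0.05, while 0.938% of all genes rose and 0.434% fell. The members' median log2 fold change was -0.06 for KO_VILIhigh and -0.12 for KO_VILIlow in the authors' deposited tables, beside -0.01 for all genes in each. Both use WT_VILI, and the intervals leave room for differences: that of Col4a1 ran from -0.62 to 0.14 for KO_VILIhigh and from -0.49 to 0.20 for KO_VILIlow.

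The type VIII chains gave the highest and one of the lowest values. Col8a2 was at 25.7 CPM in KO_VILIhigh, 23.8 CPM in KO_VILIlow and 15.7 CPM in WT_VILI, with 0.71 (adjusted p = 0.287) for KO_VILIhigh and 0.60 (adjusted p = 0.581) for KO_VILIlow in the authors' deposited tables. Col8a1 was at 15.9, 16.7 and 23.0 CPM in KO_VILIhigh, KO_VILIlow and WT_VILI, with -0.53 (adjusted p = 0.733) for KO_VILIhigh and -0.46 (adjusted p = 1) for KO_VILIlow in the authors' deposited tables. The ratio of Col8a1 to Col8a2 per kb was 0.524 in KO_VILIhigh, 0.595 in KO_VILIlow, 1.24 in WT_VILI, 0.533 in KO_noVILI and 0.855 in WT_noVILI. It was below 1 in all 3 KO groups and in WT_noVILI, and above 1 only in WT_VILI, and it was not tested.

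Col3a1 was at 373.4 CPM in KO_VILIhigh, 328.6 CPM in KO_VILIlow and 437.8 CPM in WT_VILI, with -0.23 (adjusted p = 1) for KO_VILIhigh and -0.41 (adjusted p = 0.548) for KO_VILIlow in the authors' deposited tables. The lowest value of all was that of Col6a4 for KO_VILIlow, at 0.586 CPM in KO_VILIlow and 2.15 CPM in WT_VILI, with -1.87 (adjusted p = 0.463) in the authors' deposited table. Col1a1 had 0.29 (adjusted p = 0.904) for KO_VILIhigh and 0.07 for KO_VILIlow, and Col1a2 had 0.03 and 0.02 in the same order in the authors' deposited tables. Col15a1 was at 24.5, 19.4 and 28.3 CPM in KO_VILIhigh, KO_VILIlow and WT_VILI, with -0.55 (adjusted p = 0.462) for KO_VILIlow in the authors' deposited table. Col23a1 was at 138.8, 162.7 and 194.8 CPM in the same groups, with -0.49 (adjusted p = 0.386) for KO_VILIhigh in the authors' deposited table. Cardiac muscle markers rose in 1 of 6 cases for KO_VILIhigh and 5 of 6 for KO_VILIlow in the authors' deposited tables. Of all genes, 1.57% rose for KO_VILIhigh and 0.938% for KO_VILIlow. The part of the cardiac muscle markers in these collagen values was not tested.

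Between the 2 injury levels, 0 of 30 testable members rose and 0 fell in KO_VILIhigh against KO_VILIlow, by an approximate test on the difference of the deposited log2 fold changes, and 0 had an unadjusted p under 0.05. Over all 13220 genes tested, 0.121% rose and 0.0151% fell. The members' median was 0.02 on the log2 scale. Col3a1 had 0.18 (-0.32 to 0.69), Col1a1 0.21, Col4a1 -0.09 and Col6a1 -0.26, each with an adjusted p of 1. This test counts the spread of WT_VILI, which cancels, and is conservative.

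The fourth comparison was that of ventilated with unventilated KO lungs, also derived from the deposited log2 fold changes and conservative. In KO_VILIhigh against KO_noVILI, 0 of 28 testable members rose and 0 fell (0 at an unadjusted p under 0.05 by the same approximate test), while 2.44% of all genes rose and 1.36% fell. In KO_VILIlow against KO_noVILI, 0 of 28 rose and 0 fell (2 at an unadjusted p under 0.05), while 2.21% of all genes rose and 1.25% fell. Col4a1 had 967.1 CPM in KO_VILIhigh, 1032 CPM in KO_VILIlow and 696.2 CPM in KO_noVILI, with 0.47 (-0.06 to 1.01, adjusted p = 0.561) for KO_VILIhigh and 0.57 (0.06 to 1.08, adjusted p = 0.365) for KO_VILIlow. Col4a2 had 883.4, 961.5 and 636.2 CPM in the same groups, with 0.47 (-0.06 to 1.00, adjusted p = 0.553) for KO_VILIhigh and 0.60 (0.08 to 1.11, adjusted p = 0.321) for KO_VILIlow.

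If the variance of the cancelling groups is taken out under an equal share per group, 5 of 28 members are called higher for KO_VILIhigh and 3 of 28 for KO_VILIlow, and 0 lower for either. By the same test 8.84% of all genes are called higher and 10.3% lower for KO_VILIhigh, and 8.08% higher and 7.89% lower for KO_VILIlow, so that the members' count for KO_VILIlow is near that of all genes. For KO_VILIhigh these are Col4a4 (adjusted p = 0.0136), Col1a1 (0.0136), Col4a2 (0.0168), Col4a1 (0.018) and Col15a1 (0.0292), and for KO_VILIlow they are Col4a2 (0.00122), Col4a1 (0.00201) and Col20a1 (0.0205). Col4a1 and Col4a2 are in both sets, which share KO_noVILI. Col3a1 is in neither: it had 0.09 for KO_VILIhigh and -0.09 (-0.65 to 0.47) for KO_VILIlow.

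**Figure D3:**
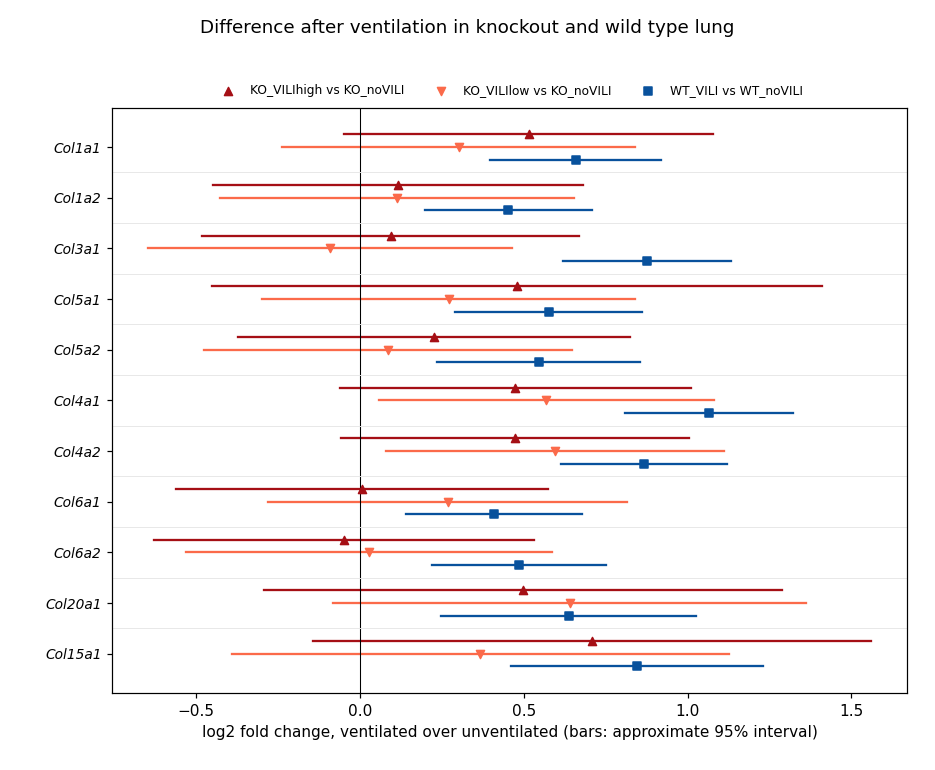
Log2 fold change of ventilated over unventilated lung for the 11 members that rose in WT, as KO_VILIhigh and KO_VILIlow over KO_noVILI (derived) and WT_VILI over WT_noVILI (deposited), with approximate 95% intervals. For Col3a1 the KO values are 0.09 and -0.09 and the WT value is 0.88, while Col20a1 has 0.50 and 0.64 in KO and 0.64 in WT.

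Whether genotype and ventilation interacted was tested as the KO minus WT difference with ventilation minus that without. The groups with and without ventilation also differed in Xist and Ddx3y. A dependence on ventilation and one on this sex-linked difference cannot be told apart here. For KO_VILIlow, 1 of 28 testable members was lower and 0 higher, with 2 at an unadjusted p under 0.05, while 0.239% of all genes were lower and 0.964% higher. That member was Col3a1, with a log2 difference of -0.97 (-1.46 to -0.47, adjusted p = 0.0158 by the approximate test with Benjamini-Hochberg adjustment). Its 4 levels were 328.6 CPM in KO_VILIlow, 437.8 CPM in WT_VILI, 349.9 CPM in KO_noVILI and 238.7 CPM in WT_noVILI, so that the KO groups lay between the WT groups. The 14 fibroblast markers summed to 2390, 2628, 2712 and 2457 CPM in the same 4 groups, with 1 of 14 higher and 0 lower in this contrast. Among them, Npnt was at 613.0, 781.5, 633.1 and 566.4 CPM, and Tcf21 at 37.4, 32.9, 178.9 and 146.4 CPM. Dcn went the opposite way to Col3a1, at 184.8, 163.4, 106.5 and 181.6 CPM in the same groups. Of the 14 markers, 4 had a positive and 10 a negative value in this contrast. The 7 mural and smooth muscle markers summed to 1003, 750.5, 619.8 and 904.2 CPM, with 4 higher and 0 lower, and the 6 cardiac muscle markers to 934.9, 384.9, 232.5 and 578.7 CPM, with 6 higher. The part of these 3 marker lists in the Col3a1 result was not tested. For KO_VILIhigh, 0 members were lower and 0 higher, with 3 at an unadjusted p under 0.05 by the same test, while 0.386% of all genes were lower and 1.17% higher. Col3a1 had -0.78 (-1.30 to -0.27, adjusted p = 0.116) for KO_VILIhigh.

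The other large chains were not called for either injury level. Col4a1 had -0.59 (adjusted p = 0.292) for KO_VILIhigh and -0.50 (adjusted p = 0.698) for KO_VILIlow, Col6a2 had -0.53 and -0.46, and Col1a1 had -0.14 and -0.36 in the same order. The members' median was -0.10 for KO_VILIhigh and -0.14 for KO_VILIlow. Both tests rest on the same KO_noVILI, WT_VILI and WT_noVILI libraries, and here no group cancels, so the tests are not conservative.

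**Figure D4:**
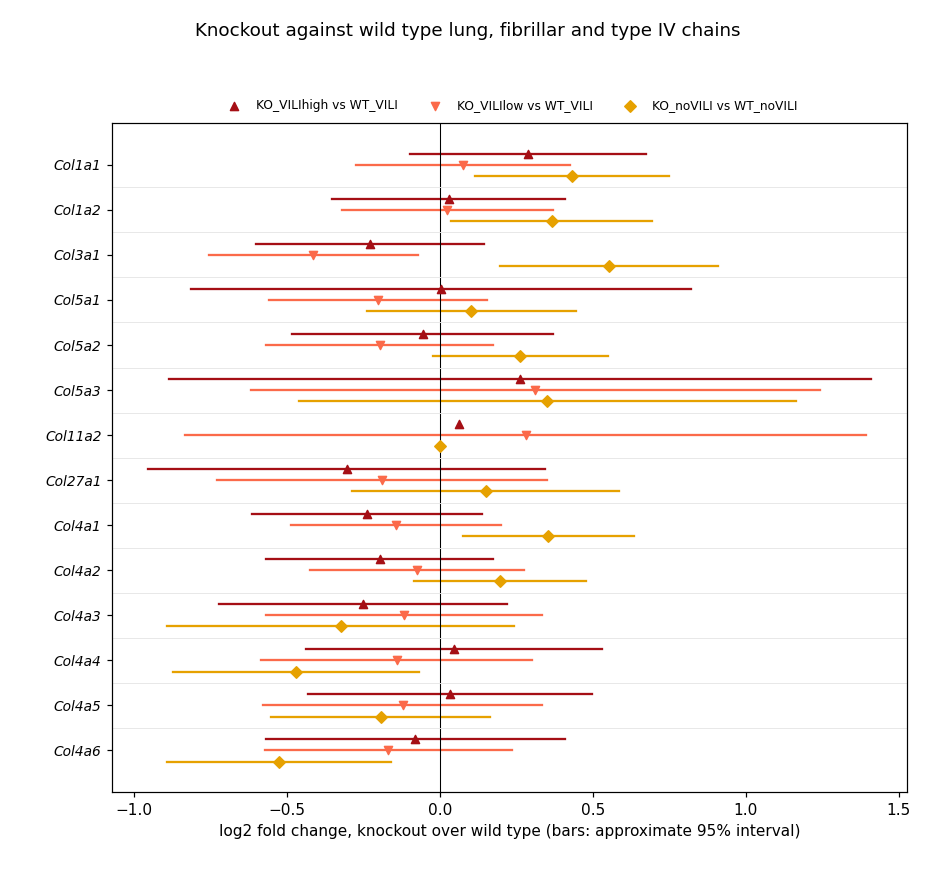
Log2 fold change of KO over WT for the fibrillar and type IV chains, as KO_VILIhigh and KO_VILIlow over WT_VILI and KO_noVILI over WT_noVILI, from the authors' deposited tables, with approximate 95% intervals where one could be recovered. Col3a1 has -0.23 and -0.41 with ventilation and 0.55 without.

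Genes that modify, process and cross-link collagen were read from a list of 33, of which 30 were measured. In WT_VILI against WT_noVILI, 9 of them (30%) rose and 0 fell in the authors' deposited table. Of all genes, 6.94% rose and 6.2% fell there. The list's median was 0.22 on the log2 scale, beside -0.02 for all genes. Lox was at 259.2 CPM in WT_VILI and 41.1 CPM in WT_noVILI, a log2 fold change of 2.66 (adjusted p = 2e-66) in the authors' deposited table, above that of any collagen member. Adamts2, which removes the N-propeptide of fibrillar procollagens, had 0.83 (adjusted p = 3.73e-06), Bmp1, which removes the C-propeptide, 0.78 (adjusted p = 4.33e-06), and the prolyl hydroxylase subunit P4ha2 0.64 (adjusted p = 0.000304) in the authors' deposited table. Serpinh1 had 0.26 (adjusted p = 0.274) there.

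In KO_noVILI against WT_noVILI, 2 of the 30 rose and 0 fell in the authors' deposited table. Of all genes, 2.01% rose and 2.83% fell in that comparison. Serpinh1 was at 331.7 CPM in KO_noVILI and 193.5 CPM in WT_noVILI, a log2 fold change of 0.78 (adjusted p = 0.000112) in the authors' deposited table, and P4ha1, another prolyl hydroxylase subunit, had 0.68 (adjusted p = 0.000455). In KO_VILIhigh against WT_VILI 1 of 30 fell in the authors' deposited table, Adamts3 at -1.87 (adjusted p = 0.0223). In KO_VILIlow against WT_VILI 0 did, with 2 at an unadjusted edgeR p under 0.05, in the authors' deposited table. Of all genes, 0.651% fell for KO_VILIhigh and 0.434% for KO_VILIlow. Lox was at 251.6 CPM in KO_VILIhigh and 318.6 CPM in KO_VILIlow against 46.0 CPM in KO_noVILI. It rose in both by the derived test, with 2.45 (adjusted p = 1.01e-14) for KO_VILIhigh and 2.79 (adjusted p = 5.53e-17) for KO_VILIlow.

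Of 22 other matrix genes measured, 7 (31.8%) rose and 0 fell in WT_VILI against WT_noVILI in the authors' deposited table. Their median was 0.29, beside -0.02 for all genes, of which 6.94% rose and 6.2% fell. Eln, which encodes elastin, was at 145.1 CPM in WT_VILI and 63.6 CPM in WT_noVILI, with 1.19 (adjusted p = 9.21e-12) in the authors' deposited table. Fbn1, a microfibril gene, had 0.58 (adjusted p = 0.000568), and the basement membrane genes Lamc1 and Nid2 had 0.52 (adjusted p = 0.00239) and 1.01 (adjusted p = 0.0172) in the authors' deposited table. Eln was at 149.2 CPM in KO_VILIhigh and 142.1 CPM in KO_VILIlow against 64.9 CPM in KO_noVILI, and rose by 1.20 (adjusted p = 0.014) for KO_VILIhigh and 1.13 (adjusted p = 0.0344) for KO_VILIlow on the log2 scale by the derived test. In KO_noVILI against WT_noVILI 1 of 22 (4.5%) fell, the fibril-binding proteoglycan Dcn at -0.77 (adjusted p = 0.000797) in the authors' deposited table. Of all genes, 2.83% fell in that comparison.

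Collagen receptors were measured for 10 genes. In WT_VILI against WT_noVILI, 0 rose and 0 fell in the authors' deposited table, with 3 at an unadjusted edgeR p under 0.05. Of all genes, 6.94% rose and 6.2% fell at the adjusted p of 0.05. Ddr1, a receptor tyrosine kinase for collagen, fell in KO_noVILI against WT_noVILI, at -0.61 (adjusted p = 0.00669) in the authors' deposited table. Among TGF-beta genes and targets in WT_VILI against WT_noVILI, Ctgf, a matrix-associated growth factor gene, rose at 1.68 and Ltbp2, a latent TGF-beta binding protein gene, at 0.72, while Smad7, an inhibitor of TGF-beta signalling, fell at -0.61 and the ligand gene Tgfb3 at -0.46 in the authors' deposited table.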

How the data were processed

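RNA of whole lungs was sequenced from TruSeq libraries, per the labels' protocols. Per the submitters' processing notes, the authors used Bowtie 1.1.2, the mouse build mm9, R 3.0.1 and edgeR. The counting method, strand use, gene filter and edgeR settings are not given in the sources used here. The deposited values are 4 tables of log2 fold changes and log2 mean CPM, with the authors' p-value and adjusted p-value per gene from edgeR. They hold 0 columns per library, so depth is unknown, and p-values measure only the spread between 2 libraries a group, which may be technical.

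The ventilated KO tables were read as KO against WT_VILI. In the other deposited comparisons the order of the groups was read from the fold change of Cldn4. The direction of every rise or fall rests on these readings. Group levels (CPM) were rebuilt here from fold change and mean abundance. An approximate standard error was the size of the log2 fold change over the normal quantile of its p-value. The 5 derived contrasts sum or subtract deposited log2 fold changes and add their variances, with Benjamini-Hochberg adjustment over genes with a logCPM of at least 0. Genes were called at an adjusted p of 0.05. The calculation was run on simulated normal values whose p came from the same normal formula, so this checked the arithmetic only. Counts with 2 libraries a group were not simulated.

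Named genes are Col1a1, Col1a2, Col3a1, Col4a1, Col4a2, Col6a1, Eln and Serpinh1, every called member, the extreme members of each class, and up to 4 called genes of each other list. One item of the TGF-beta list is not reported here, and no count is given for that list. Some further members are named beside these, chosen after their values were seen. The members and lists were chosen with earlier results of these data known. Neighbours, promoters and chromosomes come from RefSeq (GRCm38.p6), transcript lengths and exon overlap from GENCODE (GRCm38), another build than mm9, and all 31 members matched by Entrez identifier. Alternatives were other thresholds, adjustments, abundance minimums, centring, leaving out X and Y genes, and a smaller variance. Calculations used scipy 1.17.1, pandas 2.3.3 and numpy 2.4.6 in Python 3.11.15, and figures used matplotlib 3.10.9.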

Additional observations from a re-analysis of the deposited data

Results flagged for a closer look

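Col3a1 was flagged because its genotype difference differed between ventilated and unventilated lungs by a test of the difference itself. The log2 difference between the KO minus WT values with and without ventilation was -0.97 for KO_VILIlow, with an adjusted p of 0.0158 by the approximate test. For KO_VILIhigh the same quantity was -0.78, with an adjusted p of 0.116. In both, ventilation cannot be told apart from the sex-linked difference in Xist and Ddx3y.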

How the results depend on the processing

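Among recomputed counts and medians, 142 stayed within the set limits and 7 moved. In KO_noVILI against WT_noVILI, the members that rose numbered 1 (Col3a1) at a threshold of 0.1 and 1 with adjustment over genes with a logCPM of at least 1, against 0. In WT_VILI against WT_noVILI, 4 rose with Bonferroni adjustment (Col1a1, Col3a1, Col4a1 and Col4a2), against 11. With the variance of cancelling groups taken out, 5 rose in KO_VILIhigh against KO_noVILI and 3 in KO_VILIlow against KO_noVILI, while 8.84% and 8.08% of all genes did. At a threshold of 0.1, 1 modifying gene, Plod1, rose in KO_VILIlow against WT_VILI, and 1 other matrix gene, Nid1, rose in KO_noVILI against WT_noVILI. For these 7 the changed threshold, adjustment or variance is the sole difference. Among single-gene recomputations, 25 kept their side of the threshold and 9 lost it. These changed only the threshold or the adjustment of p, so no direction could reverse in them. Leaving out a replicate was not possible without values per library. No paired analysis was possible because the tables hold no values per library. Depth is unknown, so members near the abundance minimum, such as Col6a4, cannot be given a counting error.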

Other observations

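Itga1, the gene of the collagen-binding integrin alpha 1 chain, had a genotype difference that was lower with ventilation than without, by -1.05 on the log2 scale for KO_VILIhigh (adjusted p = 0.0435 by the approximate test) and -0.84 for KO_VILIlow (adjusted p = 0.0685). Itga1 was named after its values were seen, among 10 measured collagen receptors. Ventilation and the sex-linked difference cannot be told apart for it either.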
